A study of Mus musculus with 9 samples.

Results

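Semaphorins, ephrins, Slits and netrins are the classical cues of axon and cell guidance, and 66 genes for these cues and their receptors were measured here in mouse tumour and colon samples. The genes were chosen by symbol in the GENCODE M21 annotation: class 3 to 7 semaphorins, plexins, ephrins, Eph receptors, Slit1 to Slit3, Robo1 to Robo3, netrins and Unc5 genes. The rule matched 67 protein-coding genes, of which Ntn3 is not analysed here, and the 66 were set against 56398 features in the count table. Of the 66, 34 encode ligands and 30 encode receptors. The remaining 2 matched by spelling and are no guidance receptors: Unc50, which encodes a Golgi membrane protein, and Unc5cl.

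RNA sequencing covered 9 samples from BALB/c mice in 3 groups of 3. AC tumours came from mice injected with CT26 cells, a colon carcinoma line of this strain, and given Astragalus and Curcuma phaeocaulis Valeton, herbs of traditional Chinese medicine, at a ratio of 2 to 1 and a dose of 6 g/kg once a day. Model tumours came from injected mice given saline once a day, also labelled with a dose of 6 g/kg, and sham samples were healthy colon. The labels give no age, no injection site and no time point, and they do not state separate animals. P-values therefore measure sample-to-sample spread, part of which may be technical.

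Libraries held 15690038 to 23476056 counts. Values per library are CPM, read counts relative to the library total scaled by TMM factors. Summed over 7 markers of colonic epithelium, healthy colon had 15590 to 22530 CPM. The tumours, labelled as colon tumour, had 265 to 786 CPM in AC and 185 to 465 CPM in model libraries for the same sum, and none of the 7 markers was at 0 in all libraries of a group. Krt20 alone had 257 to 389 CPM in AC and 178 to 239 CPM in model libraries. It made up nearly all of the sum in AC tumours 1 and 2 and model tumours 2 and 3. AC tumour 3 and model tumour 1 stood above the other tumours in Epcam, with 67.6 and 35.6 CPM against at most 0.950 CPM in the other 4. Among the colon libraries, sham 1 stood apart from sham 2 and sham 3, with 852 CPM over 3 B and plasma cell markers against 158 and 122 CPM, and with 80.5 CPM over 4 smooth muscle markers against 1102 and 1213 CPM. Results that rest on these libraries are given below with and without them. Sham 2 and sham 3 were much alike, with a chi-square per degree of freedom of 2.88 between their counts. It was 88.64 and 104.67 for sham 1 against these, and 9.19 to 25.41 between libraries within a tumour group. Fits without sham 1 therefore rest on 2 similar colon libraries with a narrow spread, which limits their p-values.

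Guidance cues attract or repel growing axons and migrating cells, some by diffusing and some by contact. Class 3 semaphorins are secreted and signal through plexins together with neuropilins, while class 4 to 6 semaphorins span the membrane and Sema7a is held by a lipid anchor. Ephrin-A ligands are lipid-anchored and bind EphA receptor kinases, ephrin-B ligands span the membrane and bind EphB kinases, Slits bind Robo receptors, and netrins bind Dcc, neogenin and the Unc5 receptors. In the intestine, EphB receptors and ephrin-B ligands keep proliferating and differentiated epithelial cells apart along the crypt, and in vessels ephrin-B2 and EphB4 mark arteries and veins.

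Different members led in the tumours and in colon. By FPKM, the authors' value per gene length and library total, the leading member was Plxnb2 in both tumour groups (56.8 ± 5.18 FPKM in AC and 62.8 ± 5.57 in model tumours, SD, n = 3 each) and Sema4g in colon (75.99 ± 28.8). After Plxnb2, the highest levels in model tumours were those of Sema3a (57.9 ± 11.9), Epha2 (36.8 ± 3.01), Slit3 (30.6 ± 4.67), Plxna1 (27.8 ± 1.37) and Slit2 (25.6 ± 0.793). AC tumours had the same first 3, with Sema3a at 49.5 ± 22.4 and Epha2 at 40.1 ± 7.73 FPKM, followed by Plxna1 and Sema7a. In colon, Sema4g was followed by Sema4a (67.2 ± 20.3), Plxnb2 (58.7 ± 21.3), Efnb2 (44.6 ± 4.04), Efna1 (39.9 ± 6.996) and Efnb1 (38.8 ± 10.1). Sema3a and Plxnb2 in the tumours, and Sema4g, Sema4a and Plxnb2 in colon, did not differ beyond their spread. Summed over a family, Slit ligands came to 33.6 ± 7.58 FPKM in AC and 56.3 ± 3.86 in model tumours, against 0.190 ± 0.114 in colon. Class 4 semaphorins came to 30.7 ± 2.80 FPKM in AC and 27.8 ± 2.94 in model tumours, against 167 ± 50.7 in colon. FPKM here are not scaled by TMM factors, which were 1.13 to 1.19 in tumour and 0.709 to 0.800 in colon libraries. A ratio of tumour to colon in FPKM is therefore higher than on the scale of the tests, here and below.

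**Figure D1:**
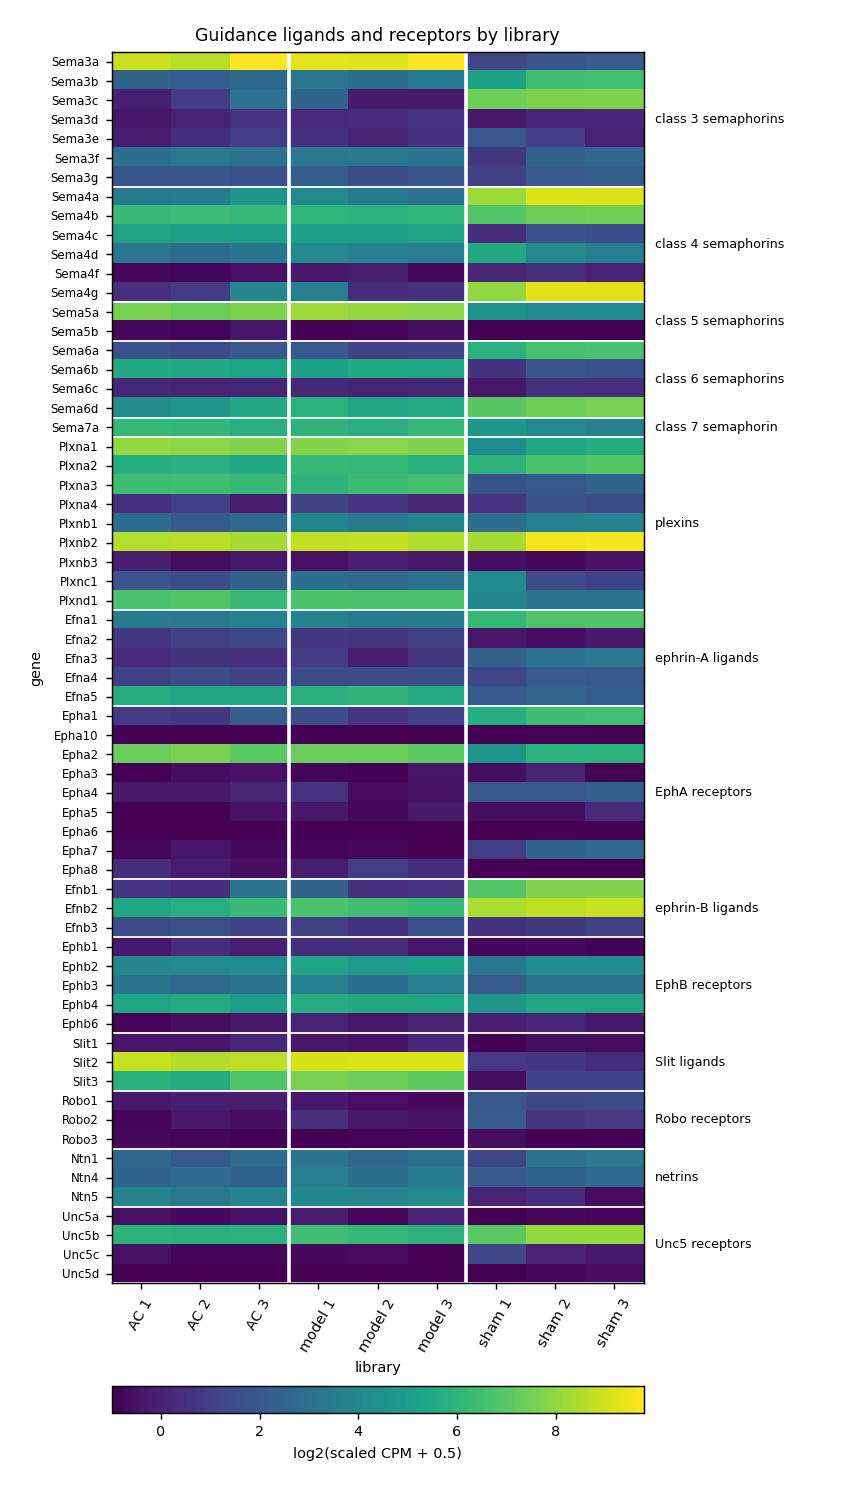
Level of 64 guidance ligands and receptors in each of the 9 libraries, as log2 of CPM plus 0.5, with genes grouped by family and libraries by group. Slit2, Slit3 and Sema3a are bright in the 6 tumours and dark in the 3 colon libraries, and Sema4g, Sema3c and Efnb1 show the opposite pattern.

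Model tumours and AC tumours were each compared with healthy colon, and AC with model tumours, to see which genes differ between tumour and normal tissue and which differ with the herbs. Both comparisons with colon use the same 3 colon libraries, so their values for a gene are given side by side and are not independent. Against colon, 34 of 51 tested members were called in model tumours at an adjusted p under 0.05, 16 higher and 18 lower, where 69.7% of 18228 genes were called. In AC tumours, 37 of 50 tested members were called, 15 higher and 22 lower, where 68.2% of 17832 genes were called. The share among members was near that of all genes, and members were called in both directions. Among all genes, 36.8% were higher and 32.9% lower in model tumours, and 35.5% were higher and 32.7% lower in AC tumours. Calls with a log2 fold change of 3 or more in size numbered 21 members in model and 23 in AC tumours, where 25.5% and 24.2% of all genes were such calls. The groups did not overlap for 37 members in model tumours, 18 higher and 19 lower (76.9% of all genes, 41.3% higher and 35.6% lower), and for 38 in AC tumours, 16 higher and 22 lower (75.8% of all genes, 40.5% higher and 35.3% lower). An unadjusted p under 0.05 was reached by 36 members in model and 37 in AC tumours, beside 72.5% and 71.2% of all genes. Without scaling factors the median fold change of all genes was 0.72 in place of 0.12 for model tumours, and 0.75 in place of 0.10 for AC tumours, and 19 members were then higher and 17 lower in AC tumours. Without sham 1, 20 members were higher and 20 lower in model tumours, and 15 were higher and 26 lower in AC tumours. Over all genes that setting gave 8253 higher and 7086 lower of 19464 in model tumours, and 7353 higher and 7007 lower of 18976 in AC tumours.

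Of the 51 members tested in model tumours against colon, 38 had at least 10 counts in all 6 libraries, 6 reached this in each model library but not in each colon library, and 7 in each colon library but not in each model library. Slit3, Ntn5, Efna2 and Sema6c reached 10 counts in every tumour library of both comparisons but not in every colon library, and Sema3d and Sema3e in every model library only. Robo1, Robo2, Epha4, Epha7 and Unc5cl did so in every colon library but not in every tumour library of either group. The same held for Sema3c and Efna3 in the comparison with model tumours, and for Plxna4 in that with AC tumours. A member that enters the test through the group where it is high is selected by its difference, so the p-values of these members are given with that limit, and the counts above describe the members without supporting more. The filter left 13 members untested in every comparison. Epha6 and Epha10, receptors of the EphA class, had 0 counts in all 9 libraries. The other untested members were Epha3, Epha5, Ephb6, Plxnb3, Robo3, Sema4f, Sema5b, Slit1, Unc5a, Unc5c and Unc5d, of which Unc5c reached the highest value, 1.94 CPM in sham 1. Sema5b and Unc5a are among the leading members of their small families and still averaged at most 0.138 and 0.340 CPM in any group. In bulk tissue, a lower value from fewer cells of a type cannot be told apart from less RNA per cell.

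Slit2 and Slit3, secreted ligands of Robo receptors, showed 2 of the 3 largest rises among the members. Slit2 (ENSMUSG00000031558, chromosome 5, 47983138 to 48307733) had 473, 371 and 413 CPM in AC tumours and 550.3, 579.6 and 573 CPM in model tumours, against 1.24, 1.20 and 0.779 CPM in colon. The tumour groups lay far above colon with no overlap. The log2 fold change was 8.60 in AC (SE 0.285, adjusted p 2.25e-05) and 9.05 in model tumours (SE 0.264, adjusted p 1.41e-05). Slit3 (ENSMUSG00000056427, chromosome 11, 35121224 to 35708507) had 57.4, 49.9 and 113 CPM in AC tumours and 189.8, 157 and 139 CPM in model tumours, against 0.155, 1.76 and 1.77 CPM in colon. Having entered the test through the tumours, it had a log2 fold change of 5.92 in AC (SE 0.750, adjusted p 0.000687) and 7.06 in model tumours (SE 0.638, adjusted p 0.000149), and 5.31 in AC tumours without sham 1. The third ligand, Slit1, was barely detected, with at most 13 counts in a library.

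The receptors of the Slits were scarce in the same libraries. Robo1, Robo2 and Robo3 together came to 0.0490 ± 0.0119 FPKM in AC and 0.0533 ± 0.0308 in model tumours, against 0.210 ± 0.124 in colon. Robo1, the widely expressed Slit receptor, had 0.333, 0.443 and 0.420 CPM in AC tumours and 0.335, 0.182 and 0.104 CPM in model tumours, against 3.27, 1.92 and 2.19 CPM in colon. It fell in both tumour groups, having entered the test through colon (log2 fold change -2.61, SE 0.389, adjusted p 0.00133 in AC and -3.46, SE 0.512, adjusted p 0.00111 in model tumours). Robo2 fell in AC tumours (-3.49, SE 0.809, adjusted p 0.00823) and was at -1.94 in model tumours (SE 0.773, adjusted p 0.0598). Without model tumour 1, Robo2 was at -2.90 in model tumours with an adjusted p of 0.0249, and it was also called there without sham 2 (0.0474) or sham 3 (0.0468) and by DESeq2 (0.0257). Leaving out sham 1 gave -1.11 (adjusted p 0.132), and adjusted p was 0.174 without model tumour 2 and 0.168 without model tumour 3. Its fold in AC tumours was -4.20 without AC tumour 2 and -2.76 without sham 1. The endothelial receptor Robo4, listed as a partner, rose to 2.14 ± 0.677 FPKM in AC and 1.91 ± 0.109 FPKM in model tumours, against 0.158 ± 0.0667 FPKM in colon (log2 fold change 3.07, SE 0.442, adjusted p 0.00116 in AC and 2.96, SE 0.373, adjusted p 0.000564 in model tumours). Of 6 endothelial markers, 4 were called higher in AC and 5 in model tumours, 0 were called lower, and Tek was called in neither. The 6 summed to 102 to 140 CPM in AC and 126 to 139 CPM in model libraries, against 35.2 to 38.3 CPM in colon. Their part in the Robo4 result was not tested.

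Secreted class 3 semaphorins split by gene. Sema3a, which collapses growth cones through neuropilin 1 and class A plexins (ENSMUSG00000028883, chromosome 5, 13125414 to 13602565), had 481, 395 and 877 CPM in AC tumours and 638, 609 and 848 CPM in model tumours, against 1.94, 3.20 and 3.82 CPM in colon. It rose by a log2 fold change of 7.63 in AC (SE 0.498, adjusted p 6.38e-05) and 7.88 in model tumours (SE 0.325, adjusted p 1.78e-05). Sema3c, a ligand of both neuropilins known from heart outflow tract development (ENSMUSG00000028780, chromosome 5, 17574281 to 17730268), went the other way. It had 0.475, 1.33 and 8.03 CPM in AC tumours and 5.10, 0.364 and 0.363 CPM in model tumours, against 170.3, 199 and 208 CPM in colon. AC tumour 3 and model tumour 1 were the high tumours, still far below every colon library. Its log2 fold change was -5.84 in AC (SE 1.05, adjusted p 0.00300) and -6.52 in model tumours (SE 1.09, adjusted p 0.00188), and -7.74 without AC tumour 3 and -8.99 without model tumour 1. Sema3b, also secreted, fell as well, to 4.94 ± 0.840 CPM in AC and 8.78 ± 1.88 CPM in model tumours, against 72.0 ± 31.3 CPM in colon (log2 fold change -3.84, adjusted p 0.000309 in AC and -3.01, adjusted p 0.000587 in model tumours).

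The other class 3 genes were not called against colon. Sema3f, a ligand of neuropilin 2, had 7.32, 9.57 and 7.87 CPM in AC tumours and 9.45, 10.5 and 8.29 CPM in model tumours, against 1.17, 4.97 and 5.38 CPM in colon, with adjusted p of 0.0969 in AC and 0.0544 in model tumours. Without sham 1, whose value was the lowest, its log2 fold change was 0.60 in AC (adjusted p 0.0423) and 0.90 in model tumours (adjusted p 0.00367). Sema3g averaged 3.04 CPM in AC, 3.20 CPM in model tumours and 3.04 CPM in colon, and Sema3d and Sema3e were at or below 1.05 and 3.27 CPM in every library. Sema3a and Sema3c belong to a run of 4 class 3 genes on chromosome 5: Sema3d ends 537 kb before Sema3a, Sema3e starts 423 kb after it, and Sema3c lies a further 3.32 Mb on.

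Promoter windows are shown for the genes with the largest rises and the largest falls in model tumours. Of these genes, Sema3a and Sema3c moved in opposite directions within 1 family. Each window runs from 250 bases before to 50 bases after the RefSeq start (build GRCm38.p6), with CG dinucleotides in capitals. Slit2 lies at chr5:47982905-47983204, Sema3a at chr5:13396534-13396833, Sema4g at chr19:44989094-44989393 and Sema3c at chr5:17574566-17574865, each on the plus strand. The first pair rose in both tumour groups and the second pair fell.
Slit2: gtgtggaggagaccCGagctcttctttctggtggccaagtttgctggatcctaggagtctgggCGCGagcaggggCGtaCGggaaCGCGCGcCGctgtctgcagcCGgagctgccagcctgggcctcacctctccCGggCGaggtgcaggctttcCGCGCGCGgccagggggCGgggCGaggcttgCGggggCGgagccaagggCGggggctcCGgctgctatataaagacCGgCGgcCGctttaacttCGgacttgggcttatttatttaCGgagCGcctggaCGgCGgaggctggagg
Sema3a: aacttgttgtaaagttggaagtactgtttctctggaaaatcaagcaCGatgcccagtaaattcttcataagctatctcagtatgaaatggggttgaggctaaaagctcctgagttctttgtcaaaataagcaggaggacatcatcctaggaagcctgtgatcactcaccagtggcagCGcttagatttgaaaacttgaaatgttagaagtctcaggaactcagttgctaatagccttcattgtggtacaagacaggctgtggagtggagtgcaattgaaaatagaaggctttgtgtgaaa
Sema4g: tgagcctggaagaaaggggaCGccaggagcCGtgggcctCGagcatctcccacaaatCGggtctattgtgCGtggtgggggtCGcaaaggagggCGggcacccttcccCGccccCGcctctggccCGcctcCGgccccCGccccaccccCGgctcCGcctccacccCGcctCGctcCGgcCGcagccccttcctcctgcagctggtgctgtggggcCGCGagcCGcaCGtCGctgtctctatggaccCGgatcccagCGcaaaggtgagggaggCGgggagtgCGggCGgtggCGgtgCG
Sema3c: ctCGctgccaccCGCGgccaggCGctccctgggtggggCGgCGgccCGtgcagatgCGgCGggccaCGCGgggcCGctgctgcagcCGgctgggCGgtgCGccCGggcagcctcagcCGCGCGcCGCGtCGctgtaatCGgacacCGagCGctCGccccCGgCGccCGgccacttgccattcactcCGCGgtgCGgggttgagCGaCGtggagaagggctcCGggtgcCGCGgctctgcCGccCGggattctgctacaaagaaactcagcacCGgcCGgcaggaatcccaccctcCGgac

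The window of Slit2 holds 30 CG dinucleotides, that of Sema3a 2, that of Sema4g 30 and that of Sema3c 42. Of 32851 RefSeq promoter windows, 14.1% held fewer than Sema3a, 88.3% fewer than Slit2 or Sema4g and 97% fewer than Sema3c. The RefSeq start of Sema3a lies 271 kb inside the GENCODE gene, so the window is that of a downstream start. Short motifs were searched on both strands: CAGGTG, an E-box of the kind bound by Snail and Zeb factors, TTTATG, a core of caudal-type factors such as Cdx2, and TATAAA, the TATA box. Slit2 holds TATAAA from base 223 of its window, and the other windows shown hold none of these letters. CAGGTG occurred in 4 of 22 windows of members that fell in model tumours and in 2 of 17 windows of those that rose, beside 20.2% of all windows. TTTATG occurred in 0 windows of either set, beside 11.9% of all windows, and TATAAA in 1 of each set, beside 13.6%. The 22 windows came from 14 genes and the 17 windows from 15 genes. Their median CG counts were 20 and 23 per window, beside 7 over all windows. Since CG content differs this much, all windows are not a matched background, and nothing is concluded from these motif counts.

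The transmembrane semaphorins also held large changes in both directions. Sema4g, the most abundant member in colon (ENSMUSG00000025207, chromosome 19, 44989101 to 45003397), had 0.903, 1.33 and 15.5 CPM in AC tumours and 11.8, 0.819 and 0.985 CPM in model tumours, against 260.0, 626 and 632 CPM in colon. Its log2 fold change was -6.36 in AC (SE 1.33, adjusted p 0.00561) and -6.71 in model tumours (SE 1.27, adjusted p 0.00320), with values of -8.81 without AC tumour 3 and -9.09 without model tumour 1. Sema4a, a semaphorin with known roles in T cell responses, had 9.84, 10.3 and 23.6 CPM in AC tumours and 16.2, 10.6 and 7.78 CPM in model tumours, against 296, 590.1 and 598 CPM in colon. Its log2 fold change was -5.05 in AC (SE 0.514, adjusted p 0.000292) and -5.38 in model tumours (SE 0.441, adjusted p 0.000103). Sema6a, a ligand of class A plexins, fell to 2.81 ± 0.680 CPM in AC and 2.31 ± 0.900 CPM in model tumours, against 87.3 ± 25.2 CPM in colon (-4.93, adjusted p 6.38e-05 in AC and -5.19, adjusted p 7.56e-05 in model tumours).

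Sema5a, Sema4c and Sema6b rose. Sema5a, a semaphorin with thrombospondin repeats, had 192, 153 and 205 CPM in AC tumours and 291, 260.4 and 231 CPM in model tumours, against 21.8, 17.1 and 18.3 CPM in colon. The log2 fold change was 3.26 in AC (SE 0.202, adjusted p 5.64e-05) and 3.79 in model tumours (SE 0.198, adjusted p 2.74e-05). Sema4c, a ligand of plexin B2, had 31.2 to 36.6 CPM in AC and 34.0 to 36.1 CPM in model tumours, against 0.777 to 2.72 CPM in colon (4.08, adjusted p 0.000341 in AC and 4.13, adjusted p 0.000241 in model tumours). Sema6b had 37.8 to 48.2 CPM in AC and 35.9 to 47.9 CPM in model tumours, against 1.01 to 3.04 CPM in colon (4.25, adjusted p 0.000209 in AC and 4.18, adjusted p 0.000175 in model tumours). The lipid-anchored Sema7a rose by a smaller amount, to 65.8 ± 9.81 CPM in AC and 62.7 ± 9.01 CPM in model tumours, against 17.9 ± 6.18 CPM in colon (1.87 in AC and 1.82 in model tumours, adjusted p 0.00160 and 0.00161).

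The remaining transmembrane semaphorins fell less far or were not called. Sema6d, a ligand of plexin A1, had 19.8, 24.1 and 46.8 CPM in AC tumours and 58.0, 40.5 and 48.5 CPM in model tumours, against 129, 170.0 and 188 CPM in colon (-2.40, adjusted p 0.00154 in AC and -1.70, adjusted p 0.000463 in model tumours). Sema4b fell to 78.2 ± 4.08 CPM in AC and 66.6 ± 3.35 CPM in model tumours, against 157 ± 35.5 CPM in colon. The log2 fold change of -0.999 in AC tumours was -0.34 without scaling factors, where it was no longer called (adjusted p 0.0862). Sema4d, the ligand of plexin B1 found on lymphocytes, had 6.47 to 8.89 CPM in AC tumours and 11.3 to 16.1 CPM in model tumours. In colon it had 46.0 CPM in sham 1 and 16.4 and 11.6 CPM in the other libraries. Sema4d was called lower in AC (-1.64, adjusted p 0.0361, and -0.88, adjusted p 0.0128 without sham 1) and not in model tumours (-0.87, adjusted p 0.193, and -1.27, adjusted p 0.0453 without sham 3). The call in AC tumours was lost without any 1 of the AC libraries (adjusted p 0.0798 to 0.115). The B and plasma cell markers moved with sham 1, and their part in this result was not tested. Sema6c stayed at or below 0.881 CPM in every library.

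**Figure D2:**
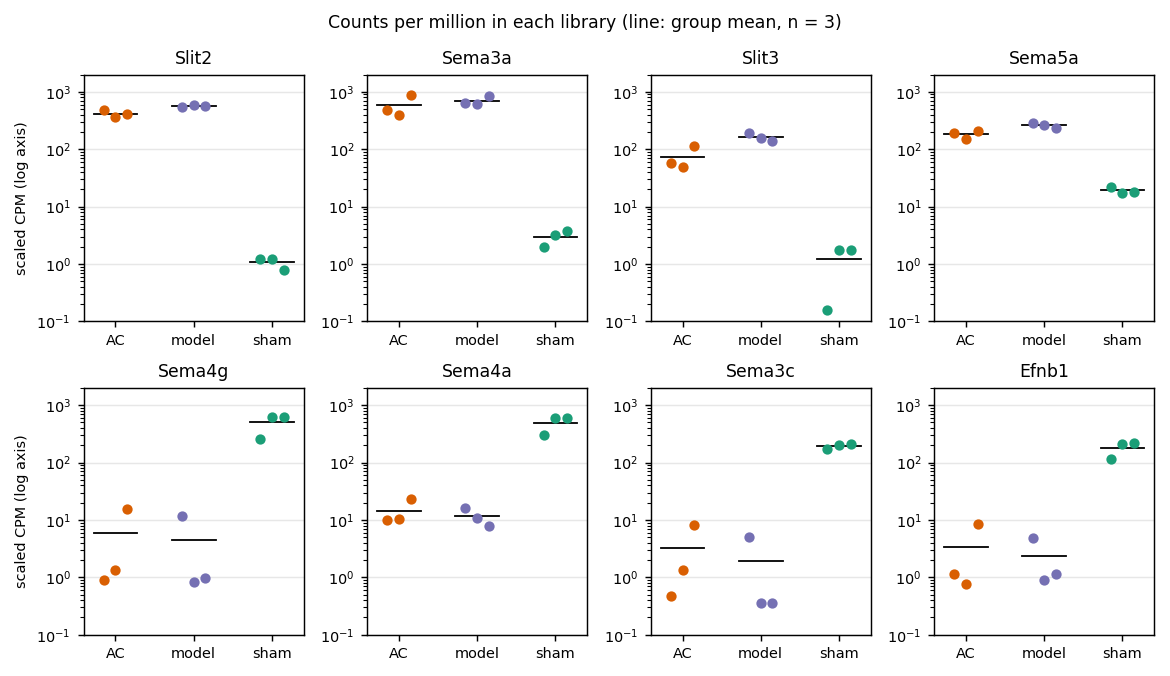
CPM of 8 ligands in each library on a log axis, with points for libraries and lines for group means. In the upper row every tumour lies above every colon library, and in the lower row every tumour lies below, with AC tumour 3 and model tumour 1 the highest tumours for Sema4g, Sema4a, Sema3c and Efnb1.

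Among the plexins, the receptors of the semaphorins, 3 of 8 tested genes rose in both tumour groups, near the 36.8% of all genes called higher in model and 35.5% in AC tumours. Plxna3 (ENSMUSG00000031398, chromosome X, 74329066 to 74344689) had 86.3, 87.8 and 75.2 CPM in AC tumours and 64.8, 82.8 and 94.7 CPM in model tumours, against 2.95, 3.36 and 4.96 CPM in colon. The log2 fold change was 4.47 in AC (SE 0.219, adjusted p 3.53e-05) and 4.43 in model tumours (SE 0.245, adjusted p 3.04e-05). Plxna1 had 211 to 271 CPM in AC and 205 to 234 CPM in model tumours, against 18.6 to 48.7 CPM in colon (2.72, adjusted p 0.000688 in AC and 2.61, adjusted p 0.000647 in model tumours). Its exons share 10.7% of their bases with an antisense transcript, Gm26811, which reached at most 96 counts. Plxnd1, the receptor of Sema3e in vessels, rose to 99.4 ± 21.6 CPM in AC and 105 ± 3.83 CPM in model tumours, against 10.8 ± 4.01 CPM in colon (3.18, adjusted p 0.000303 in AC and 3.29, adjusted p 0.000149 in model tumours). Markers of other cell types differed in the same libraries, with endothelial markers as given above. The 5 macrophage markers, all called higher in both tumour groups, summed to 572 to 892 CPM in AC and 459 to 656 CPM in model tumours, against 39.5 to 61.5 CPM in colon. The 6 fibroblast markers summed to 336 to 917 CPM in AC and 820 to 1183 CPM in model tumours, against 137 to 192 CPM in colon. Of these 6, 4 were called higher in AC and 5 in model tumours, and Lum in neither. Called lower in both tumour groups were 4 of 4 smooth muscle, 2 of 3 pericyte, 3 of 3 B and plasma cell and 2 of 4 T and NK cell markers. The part of these cell types in the rises of the members was not tested. The neuropilins, co-receptors of class 3 semaphorins, rose with them. Nrp2 reached 30.8 ± 0.627 FPKM in AC and 34.6 ± 1.58 FPKM in model tumours, against 2.61 ± 0.650 FPKM in colon (log2 fold change 2.90 in AC and 3.11 in model tumours, adjusted p 0.000125 and 8.02e-05). Nrp1 reached 4.83 ± 0.540 FPKM in AC and 4.73 ± 0.784 FPKM in model tumours, against 0.574 ± 0.149 FPKM in colon (2.43 in AC and 2.44 in model tumours, adjusted p 0.000188 and 0.000155).

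Plxnb2, the most abundant plexin, had 386, 407 and 332 CPM in AC tumours and 436, 461 and 374 CPM in model tumours, against 330.2, 744 and 784 CPM in colon. Sham 1 lay among the tumours and the other colon libraries above them. The log2 fold change was -0.71 in AC (adjusted p 0.0801) and -0.52 in model tumours (adjusted p 0.184), and without sham 1 it was -1.09 (adjusted p 6.67e-05) and -0.81 (adjusted p 0.000122). Without scaling factors the model value was 0.10. Plxnc1, the receptor of Sema7a, had 2.43 to 4.93 CPM in AC and 5.96 to 7.98 CPM in model tumours, against 18.5 CPM in sham 1 and 2.32 and 1.77 CPM in the other colon libraries. In model tumours it was at -0.12 on the log2 scale (adjusted p 0.914), and 1.82 without sham 1 (adjusted p 0.000349), so the direction rests on that library. Plxna2 and Plxnb1 fell in AC tumours (-0.89, adjusted p 0.0121 and -0.99, adjusted p 0.0426) and were not called in model tumours. Both calls in AC were lost without scaling factors (adjusted p 0.349 and 0.406), where Plxnb1 was higher in model tumours (0.92, adjusted p 0.0221). Plxna2 was called lower in model tumours without sham 1 (-0.74, adjusted p 0.00123). The call of Plxnb1 was also lost when any AC library, sham 2 or sham 3 was left out (adjusted p 0.0654 to 0.126). Plxna4 stayed at or below 2.64 CPM.

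Ephrins and Eph receptors changed by gene rather than by class. Efnb1, a ligand of EphB receptors (ENSMUSG00000031217, chromosome X, 99136130 to 99148991), had 1.14, 0.775 and 8.34 CPM in AC tumours and 4.91, 0.909 and 1.14 CPM in model tumours, against 117, 214 and 215 CPM in colon. Its log2 fold change was -5.69 in AC (SE 1.02, adjusted p 0.00297) and -6.21 in model tumours (SE 0.768, adjusted p 0.000524), with values of -7.54 without AC tumour 3 and -7.44 without model tumour 1. Efnb2, the arterial ephrin that is also made by epithelium, had 43.2, 52.9 and 77.3 CPM in AC tumours and 106, 88.3 and 76.8 CPM in model tumours, against 345, 426 and 468 CPM in colon (-2.82, adjusted p 0.000232 in AC and -2.17, adjusted p 0.000149 in model tumours). Efnb3 was low throughout, at 1.84 to 2.66 CPM in AC and 1.00 to 2.80 CPM in model tumours, against 1.01 to 1.56 CPM in colon. Its call in AC (0.89, adjusted p 0.0432) was lost when any of the 6 libraries was left out (adjusted p 0.0514 to 0.148), and in a fit of all 9 libraries (adjusted p 0.0836).

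Of the 3 EphB receptors tested against colon, which bind these ligands, Ephb2 was called in model tumours and none in AC tumours. Ephb4, the venous receptor of ephrin-B2, had 41.4, 49.0 and 32.6 CPM in AC tumours and 51.6, 46.2 and 41.7 CPM in model tumours, against 25.7, 42.9 and 40.8 CPM in colon, and the groups overlapped (log2 fold change 0.17, adjusted p 0.522 in AC and 0.38, adjusted p 0.160 in model tumours). Ephb3, a receptor of the crypt base, overlapped as well, at 5.98 to 8.65 CPM in AC and 6.91 to 11.8 CPM in model tumours, against 3.89 to 8.17 CPM in colon. Ephb2, its partner in the crypt, rose in model tumours, which had 38.5, 27.1 and 33.5 CPM, against 8.94, 18.2 and 18.3 CPM in colon (1.16, SE 0.302, adjusted p 0.0127). AC tumours had 15.5, 17.3 and 18.4 CPM of Ephb2, overlapping colon (0.19, SE 0.290, adjusted p 0.587). Without scaling factors Ephb4 was called higher in both tumour groups (0.83, adjusted p 0.0139 in AC and 0.99, adjusted p 0.00350 in model tumours), Ephb3 in model tumours (1.20, adjusted p 0.0188) and Ephb2 in AC tumours (0.84, adjusted p 0.0298). Ephb1 was too low to be tested against colon, at 0.526 ± 0.226 CPM in AC and 0.632 ± 0.323 CPM in model tumours, against 0.0526 ± 0.0456 CPM in colon.

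In the A class, ligands and receptors moved in both directions. Efna1 (ENSMUSG00000027954, chromosome 3, 89271733 to 89281142), a ligand of EphA2, had 10.4, 9.35 and 12.96 CPM in AC tumours and 13.7, 9.96 and 9.95 CPM in model tumours, against 72.9, 110.1 and 114 CPM in colon. It fell in both (-3.17, SE 0.236, adjusted p 9.41e-05 in AC and -3.11, SE 0.244, adjusted p 8.74e-05 in model tumours). Efna5 (ENSMUSG00000048915, chromosome 17, 62604184 to 62881317) rose, with 52.1, 45.8 and 43.1 CPM in AC tumours and 52.9, 66.5 and 49.5 CPM in model tumours, against 3.65, 5.45 and 4.18 CPM in colon (3.41, SE 0.205, adjusted p 5.43e-05 in AC and 3.69, SE 0.222, adjusted p 3.81e-05 in model tumours). Efna2 rose at a low level, to 1.60 ± 0.430 CPM in AC and 1.29 ± 0.321 CPM in model tumours, against 0.275 ± 0.102 CPM in colon. Efna1, Efna3 and Efna4 lie next to each other on chromosome 3, with gaps of 32.8 kb and 10.4 kb. Efna3 fell to 0.883 ± 0.118 CPM in AC and 0.975 ± 0.504 CPM in model tumours, against 7.25 ± 2.41 CPM in colon, and Efna4 was not called (-0.59, adjusted p 0.172 in AC and -0.32, adjusted p 0.393 in model tumours). Efna3 is uncertain, since 14.1% of its exon bases overlap the antisense gene Gm15998, which reached 221 counts, and the strand setting of the counting is not given in the sources used here.

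Epha2, the receptor kinase of ephrin-A1 in many epithelia and tumours (ENSMUSG00000006445, chromosome 4, 141301240 to 141329384), was the only EphA receptor of the 4 tested that rose. It had 153, 197 and 132 CPM in AC tumours and 160.1, 157 and 134 CPM in model tumours, against 23.9, 58.6 and 59.5 CPM in colon (1.77, SE 0.347, adjusted p 0.00406 in AC and 1.70, SE 0.335, adjusted p 0.00384 in model tumours). Epha1 had 1.28, 1.16 and 4.09 CPM in AC tumours and 2.38, 1.09 and 1.76 CPM in model tumours, against 51.8, 86.6 and 91.4 CPM in colon (-5.10, SE 0.591, adjusted p 0.000481 in AC and -5.41, SE 0.387, adjusted p 6.43e-05 in model tumours, with -5.94 without AC tumour 3). On the opposite strand, Zyx shares 6% of the exon bases of Epha1 and reached 1530 counts. Epha4 and Epha7 also fell, both having entered the test through colon. Epha7 averaged 0.159 ± 0.102 CPM in AC and 0.0551 ± 0.0484 CPM in model tumours, against 4.13 ± 2.36 CPM in colon (-4.64, adjusted p 0.00150 in AC and -5.95, adjusted p 0.000897 in model tumours). Epha4 averaged 0.431 ± 0.171 CPM in AC and 0.474 ± 0.525 CPM in model tumours, against 3.75 ± 0.501 CPM in colon (-3.09, adjusted p 0.000732 in AC and -2.87, adjusted p 0.0122 in model tumours, with -4.38 without model tumour 1). Epha8 had 0 counts in every colon library and fell under the filter there. With a floor of 3 counts per library, its mean of 0.926 ± 0.534 CPM in model tumours was at least 4.05-fold above the mean colon floor of 0.229 CPM. The model libraries held 12, 33 and 16 counts of Epha8, so the bound holds for the mean and not for each library. AC tumours held 17, 7 and 3 counts of Epha8, of which the last is at the floor, and no fold is given for them.

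Netrins and their receptors gave a mixed picture. Ntn5 had 13.9, 9.41 and 14.0 CPM in AC tumours and 15.701, 15.4 and 17.6 CPM in model tumours, against 0.544, 0.801 and 0.142 CPM in colon (4.65, SE 0.562, adjusted p 0.000572 in AC and 5.05, SE 0.502, adjusted p 0.000218 in model tumours). Its value is uncertain, because 23.4% of its exon bases overlap Sec1 on the opposite strand, which reached 488 counts. Ntn4, a netrin of basement membranes, rose in model tumours with 11.7, 7.46 and 10.5 CPM, against 3.58, 4.65 and 6.30 CPM in colon (1.05, SE 0.302, adjusted p 0.0183), a call lost without model tumour 1 (adjusted p 0.0608), model tumour 3 (0.0512) or sham 2 (0.0812). In AC tumours Ntn4 had 4.85, 6.25 and 4.56 CPM, within the range of colon, and was called higher without scaling factors (0.77, adjusted p 0.0466). Ntn1, the founding netrin, had 3.65 to 6.56 CPM in AC and 5.27 to 8.22 CPM in model tumours, against 1.87 to 9.42 CPM in colon, and was not called. Unc5b, the Unc5 receptor of endothelium and the only one with more than 2 CPM in any library, had 60.8, 57.6 and 58.6 CPM in AC tumours and 87.3, 74.3 and 59.6 CPM in model tumours, against 131, 273 and 279 CPM in colon (-1.93, SE 0.278, adjusted p 0.00115 in AC and -1.59, SE 0.312, adjusted p 0.00373 in model tumours). The partner receptor Dcc was at 0 in every library but model tumour 2. Neogenin (Neo1) stood at 11.6 ± 0.615 FPKM in AC, 14.5 ± 0.663 FPKM in model tumours and 10.6 ± 0.473 FPKM in colon. On the TMM scale used for the tests, Neo1 had 86.0 ± 5.87 CPM in AC and 110.4 ± 4.32 CPM in model tumours, against 125 ± 12.9 CPM in colon, and was called lower in AC (-0.53, SE 0.114, adjusted p 0.00576) and not in model tumours (-0.16, adjusted p 0.275), so the direction differs between the scales. Of the genes matched by spelling, Unc50 fell in AC (log2 fold change -0.41, adjusted p 0.0237) and in model tumours (-0.64, adjusted p 0.00284). The call in AC was lost without AC tumour 1, AC tumour 2, sham 2 or sham 3 (adjusted p 0.0633 to 0.124). Without scaling factors those values were 0.23 and -0.03 and neither was called. Unc5cl averaged 0.0158 ± 0.0274 CPM in AC and 0.0744 ± 0.129 CPM in model tumours, against 2.15 ± 0.321 CPM in colon. Its log2 fold change was -6.44 in AC and -4.52 in model tumours, and -8.02 without AC tumour 1 and -8.11 without model tumour 1.

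**Figure D3:**
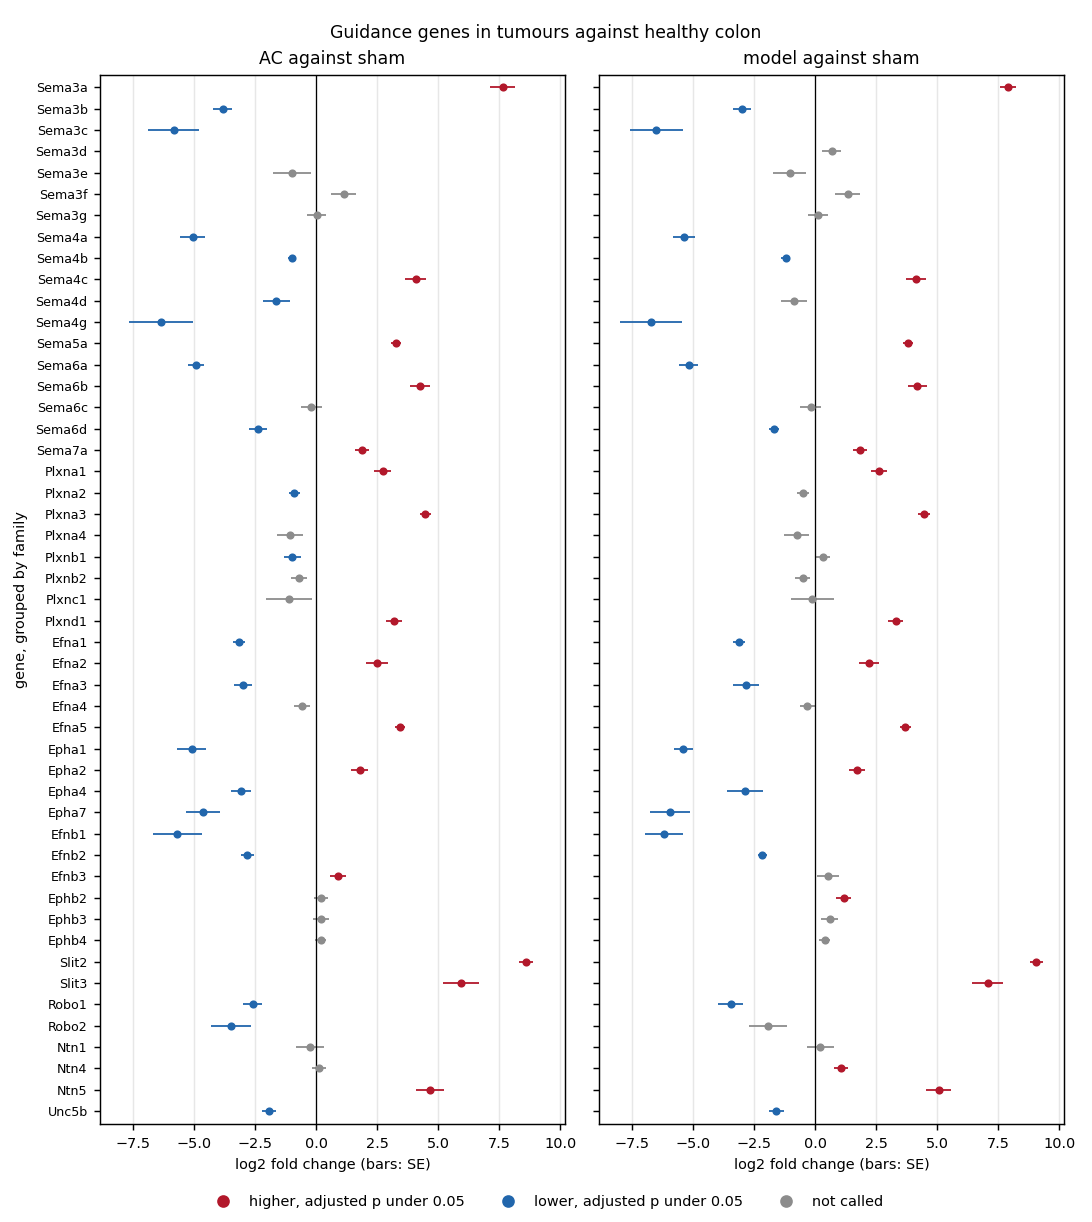
Log2 fold change with its standard error for each tested ligand and receptor, in AC tumours against colon on the left and in model tumours against colon on the right, coloured by call. Slit2, Sema3a and Slit3 lie farthest to the right and Sema4g, Sema3c and Efnb1 farthest to the left in AC tumours, and rises and falls occur within most families.

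The 3 guidance ligands that fell furthest in both tumour groups moved together with epithelial markers among the tumours. As a share of the colon mean, Sema3c stood at 4.18% in AC tumour 3 and 2.65% in model tumour 1, against 0.189% to 0.691% in the other 4 tumours. Sema4g stood at 3.06% and 2.32% in these 2 libraries against 0.162% to 0.263%, and Efnb1 at 4.58% and 2.70% against 0.425% to 0.626%. Over the 7 epithelial markers, AC tumour 3 held 1.46% to 21.03% and model tumour 1 held 0.623% to 17.9% of the colon mean. Epcam, for example, was at 2.35% and 1.24% there and at most 0.0331% in the other tumours, and Cdx2 was at 0 in AC tumour 2. All 7 markers were highest in AC tumour 3, and 6 of 7 were second in model tumour 1. Sema4a and Epha1 showed smaller gaps, with 4.76% and 5.34% in AC tumour 3, 3.27% and 3.11% in model tumour 1, and 1.42% to 2.30% in the other tumours. The part of epithelial content in these values was not tested.

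**Figure D4:**
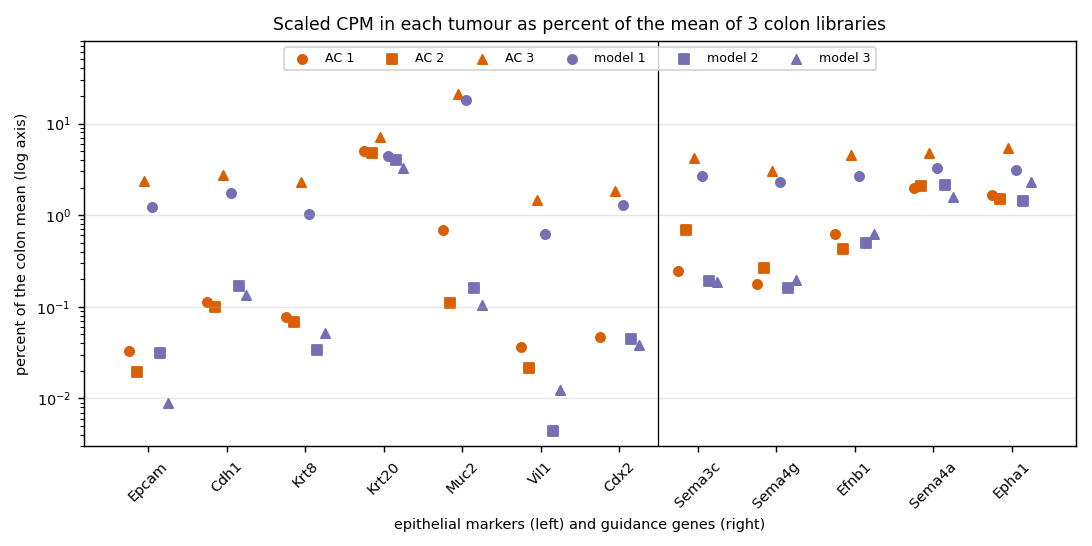
CPM in each tumour as percent of the mean of the 3 colon libraries, on a log axis, for 7 epithelial markers and 5 guidance genes. AC tumour 3 and model tumour 1 stand above the other tumours for Sema3c, Sema4g and Efnb1 as they do for Epcam, and Cdx2 in AC tumour 2, at 0, is not drawn.

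Genes around the guidance receptors were described from a list of 52 partners. Against colon, 17 rose and 11 fell of 43 tested in model tumours, and 17 rose and 12 fell of 43 tested in AC tumours, near the 69.7% and 68.2% called over all genes, with median log2 fold changes of 0.46 and 0.20 beside 0.12 and 0.10 over all genes. Flrt2, a ligand of Unc5 receptors, rose with Sema3a and Slit2, to 11.01 ± 4.08 FPKM in AC and 16.1 ± 0.728 FPKM in model tumours, against 0.0786 ± 0.0332 FPKM in colon. Its relative Flrt3 fell (-4.31, adjusted p 0.00392 in AC and -4.41, adjusted p 4.35e-05 in model tumours). The adaptors of Robo receptors split as well: Srgap2 rose (3.45, adjusted p 0.000537 in AC and 3.49, adjusted p 0.000429 in model tumours) and Srgap1 fell (-4.35, adjusted p 0.000429 in AC and -4.71, adjusted p 0.000311 in model tumours). Dpysl3, a collapsin response mediator downstream of semaphorins, had 205 to 252 CPM in AC and 270.1 to 318 CPM in model tumours, against 11.1 to 13.4 CPM in colon (4.18, adjusted p 2.69e-05 in AC and 4.58, adjusted p 1.57e-05 in model tumours). L1cam, a neural adhesion molecule that associates with neuropilin 1, fell (-5.01, adjusted p 0.00370 in AC and -5.60, adjusted p 0.00127 in model tumours).

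AC tumours were compared with model tumours to ask what the herbs changed. At an adjusted p under 0.05, 0 of 48 tested members were called, where 0% of 17137 genes were called. At an unadjusted p under 0.05, 14 of the 48 members passed, beside 13.1% of all genes. DESeq2, run on the same counts without the edgeR filter, called 284 of 33023 genes, 75 higher and 209 lower in AC tumours. It called 6 of 63 members, all 6 lower. By edgeR, leaving out AC tumour 3 gave 569 calls of 17749 genes, 150 higher and 419 lower, and 7 of 49 members, all 7 lower. Leaving out both AC tumour 3 and model tumour 1 gave 94 calls of 17132 genes, 14 higher and 80 lower, and 2 of 47 members. No filter on low counts gave 105 calls of 33023 genes, 23 higher and 82 lower, and 2 of 63 members. Most calls over all genes were thus also lower in AC tumours. For 11 members every AC library lay below every model library and for 2 every AC library lay above, 13 in all, where 9.98% and 9.06% of all genes, 19% in all, were separated in these directions. Of the 48 folds, 32 were below 0, with a median of -0.19 beside 0.01 over all genes.

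The named members with the smallest p were Ephb2, Plxnb1 and Slit2, each lower in AC tumours. Ephb2 had 15.5, 17.3 and 18.4 CPM in AC tumours, against 38.5, 27.1 and 33.5 CPM in model tumours. Every AC value lay below every model value. The log2 fold change was -0.95 (SE 0.150, unadjusted p 0.000155, adjusted p 0.127 by edgeR), and over the alternatives the adjusted p ran from 2.66e-05 to 0.924. Plxnb1, the receptor of Sema4d, had 6.42, 3.71 and 6.19 CPM in AC tumours, against 15.1, 10.6 and 14.0 CPM in model tumours (-1.28, SE 0.248, adjusted p 0.185), with adjusted p from 0.000258 to 0.924 over the alternatives. Sema4d itself had 8.89, 6.47 and 8.60 CPM in AC tumours, against 16.1, 13.1 and 11.3 CPM in model tumours (-0.76, SE 0.198, adjusted p 0.257). Slit2, given above, did not overlap between the tumour groups (-0.44, SE 0.100, adjusted p 0.231), with adjusted p from 0.0118 to 0.924 over the alternatives. DESeq2 called Ephb2 (adjusted p 2.66e-05), Plxnb1 (0.000258), Slit2 (0.0118), Sema5a (0.0253), Ntn4 (0.0273) and Sema4d (0.0396).

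Slit3, Sema6d, Efnb2 and Plxnc1 were called only where AC tumour 3 was left out. Efnb2 was at -0.64 (adjusted p 0.335) with all libraries and -0.93 (adjusted p 0.0279) without AC tumour 3, and Plxnc1 at -1.01 (adjusted p 0.264) and -1.35 (adjusted p 0.0336). For Slit3 the log2 fold change in AC against model tumours was -1.14 (adjusted p 0.312), -1.61 without AC tumour 3 (adjusted p 0.00589) and -1.48 without AC tumour 3 and model tumour 1 (adjusted p 0.0154). For Sema6d the corresponding values were -0.69 (adjusted p 0.460), -1.18 (adjusted p 0.0177) and -1.03 (adjusted p 0.0358). AC tumour 3 was the highest AC library for Slit3 and Sema6d. Fibroblast markers were also highest there among AC tumours, with 336, 441 and 917 CPM over 6 markers in AC tumours 1, 2 and 3, against 1183, 820 and 1124 CPM in model tumours. None of the 6 was at 0 in all libraries of a group, 0 of 6 were called between the tumour groups, and their part in the Slit3 and Sema6d values was not tested. Macrophage markers summed to 892, 740 and 572 CPM in AC tumours, against 459, 602 and 656 CPM in model tumours. Of these sums Mrc1 alone held 543, 394 and 249 CPM in AC tumours, against 143, 338 and 305 CPM in model tumours. Of the 5 markers, 0 were called between the tumour groups.

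The 3 members with the smallest p among those higher in AC tumours were Sema4b, Plxna1 and Efnb3. Sema4b had 78.2, 82.2 and 74.1 CPM in AC tumours, against 68.5, 62.7 and 68.5 CPM in model tumours (0.23, SE 0.084, adjusted p 0.322). Plxna1 (0.13, adjusted p 0.613) and Efnb3 (0.38, adjusted p 0.703) overlapped between the groups. The most abundant ligand of the tumours, Sema3a, was at -0.25 in AC against model tumours (adjusted p 0.784), with AC tumours spread from 395 to 877 CPM.

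**Figure D5:**
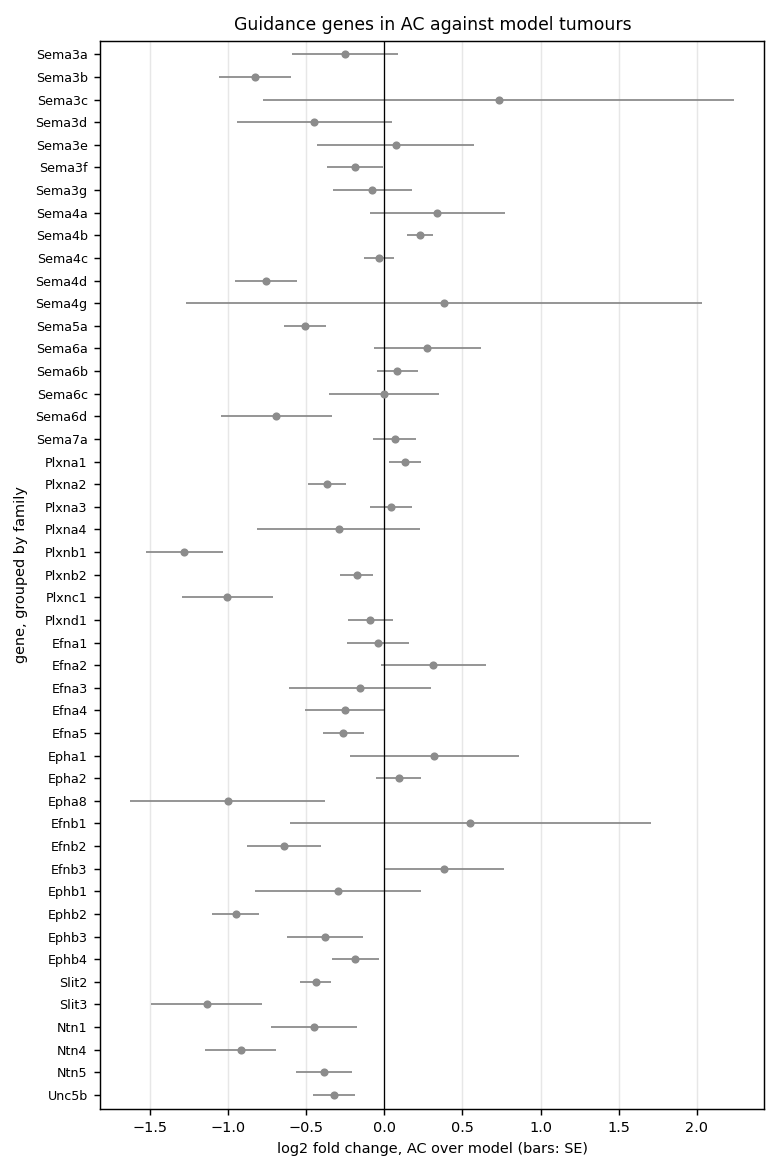
Log2 fold change of AC over model tumours with its standard error for 47 tested ligands and receptors, none of which was called. Plxnb1, Slit3, Plxnc1, Epha8, Ephb2 and Ntn4 lie at or below -0.92, and 32 of the 47 points lie below 0.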

How the data were processed

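Bulk RNA-seq of 9 samples was analysed from deposited tables. Per the labels and submitters' processing notes, counts per gene came from featureCounts 1.5.0-p3 with the build mm9 named. The deposited counts are whole numbers, and the authors also deposited FPKM values. No source used here gives the aligner, the strand setting or a filter. Identifiers matched GENCODE M21 (GRCm38), whose coordinates are printed. Gene lengths in the tables were within 1% of M21 exon sums for 95.4% of 11030 genes compared.

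Each pair of groups was fitted by edgeR 4.0.16 in R 4.3.3 (TMM factors, filterByExpr, robust quasi-likelihood fit and test, Benjamini-Hochberg adjustment over all genes tested, threshold 0.05), on the 6 libraries concerned. The SE is the absolute log2 fold change over the square root of F. CPM were scaled by TMM factors over all 9 libraries. Levels between genes were compared by FPKM. DESeq2 1.42.0, other scalings, no filter, a fit of all libraries, a replicate block and leaving out libraries were alternatives. The test was tried on simulated counts with known changes. Between tumour groups it recovered 22.7% of 1.5-fold and 53.3% of 2-fold changes, and 13.7% of its calls were false. Hence 0 calls there do not show equal levels. Against colon it recovered 8.67% of 2-fold changes for model and 2.67% for AC tumours, and 85.7% and 83.8% of 8-fold changes. False calls made up 6.44% and 7.33%. Few genes were changed in the simulations, which gave 233 calls for model and 232 for AC tumours against colon. In the data, 69.7% and 68.2% of genes were called, so the adjustment was stricter in the simulations. The simulated shares are therefore not those of the reported tests against colon. Named genes were the 2 highest by FPKM in each family, the 5 largest rises and falls per comparison with colon, and the 3 smallest p per direction for AC against model tumours; other members named in the report were chosen after their values were seen, to account for every member. Members and lists were chosen with earlier results of these data known. Of 53 partner symbols, 52 matched. Promoter windows are from RefSeq and matched 55 members. Floors of 3 counts cover counting error only.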

Additional observations from a re-analysis of the deposited data

How the results depend on the processing

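For AC against model tumours, 0 members were called by edgeR, and the counts under other choices were 2 without a filter, 6 by DESeq2, 2 without model tumour 1 and AC tumour 3, and 0 to 7 when 1 library was left out. Over all genes the counts were 105, 284, 94 and 0 to 569, where the most came without AC tumour 3, a setting with fewer samples. The cause of these differences was not tested. Among members named by rule, directions reversed for Plxnb2 in model tumours against colon without scaling factors (0.10), where the other members to change sign were Efna4, Plxna2, Plxnc1 and Sema6c in model tumours, Efna4, Ntn1, Sema6c and Unc50 in AC tumours, and Sema6c between tumour groups. Directions also reversed without sham 1 in AC tumours against colon for 3 genes whose values over left-out libraries ran from -0.16 to 0.31 (Ephb2), -0.10 to 0.32 (Ephb4) and -0.14 to 0.32 (Ntn4). Without scaling factors, 21 members were higher and 17 lower in model tumours against colon, and all genes split into 9060 higher and 4405 lower against 6700 and 5997 with TMM. In AC tumours the split of all genes was 8832 higher and 4114 lower against 6339 and 5826. For single members named by rule, direction and side of the threshold were kept in 338 of 351 alternatives for model tumours against colon, 330 of 338 for AC tumours against colon and 77 of 84 between tumour groups. With the replicate block, 35 of 51 members were called in model tumours against colon, where 11774 of 18228 genes were called. In AC tumours against colon, 34 of 50 members and 11303 of 17832 genes were called with it. Between tumour groups it called 0 of 48 members and 0 of 17137 genes. In their deviations from group means, same-numbered libraries correlated by -0.43 to 0.37 and differently numbered ones by -0.46 to 0.55. Deviations from a mean of 3 libraries are tied to each other, so this check cannot decide whether the numbers pair samples. Members with few counts, such as Robo1, Robo2, Epha7 and Unc5cl, are limited by depth.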
